A study of Mus musculus with 2 samples.

Results

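PD-1 and its ligands are represented in these data by 3 of the 32285 genes in the count matrix. They are Cd274, which encodes the ligand PD-L1, Pdcd1lg2, which encodes the ligand PD-L2, and Pdcd1, which encodes the receptor PD-1. The genes were chosen by symbol, and their UMIs (unique molecular identifiers, each marking 1 captured RNA molecule) were summed per library and per class of cells. The questions were which cells carried ligand and receptor RNA, how the levels differed between the 2 libraries, and which other genes went with Cd274 inside the tumour cells.

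PD-1 is an inhibitory receptor that T cells display after activation. When PD-L1 or PD-L2 binds it, the phosphatase SHP-2 is drawn to its tail and signalling from the T cell receptor and CD28 is dampened. PD-L1 is made by many cell types and its gene is induced by interferon gamma through JAK kinases and IRF1, whereas PD-L2 is made mainly by dendritic cells and macrophages. Tumours that display PD-L1 can escape T cells by this route, and antibodies against PD-1 or PD-L1 are used as cancer treatment.

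The study addressed the role of Kindlin-2, an adaptor that activates integrins and is encoded by Fermt2, in escape of breast tumours from immunity. 4T1, a mouse mammary carcinoma cell line that models triple-negative breast cancer, carried a control sgRNA (genotype WT) or a sgRNA against Kindlin-2 (genotype K2-KO) and was grown in the fat pads of the mammary glands of female BALB/c mice, the strain that 4T1 comes from. Tumours were excised when they had reached 150 mm3, digested with collagenase and DNase for 45 min, and live cells were sorted on mCherry and made into 1 single-cell 3′ library per genotype. The labels give neither the age of the mice, nor the number of tumours behind a library, nor which mCherry fraction was loaded, nor whether the knockout line was a clone. Immune and stromal cells came from the mice and not from the edited line. With 1 library per genotype there was no test across samples, and every interval below is a 95% interval for counting error alone, which is too narrow where cells differ from each other.

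The genomic setting of the 3 genes was taken from GENCODE M21 (mm10). The ligand genes are neighbours on the forward strand of chromosome 19, with Cd274 at chr19:29367455-29388095 and Pdcd1lg2 at chr19:29410919-29471161, 22823 bases apart. Pdcd1 lies on the reverse strand at chr1:94038305-94052553. Since Cd274 is known as an interferon-induced gene, the 250 bases before each RefSeq start (GRCm38.p6) were searched on both strands for the gamma-activated site TTCNNNGAA, the paired IRF site (GAAA, any 2 bases, GAAA), the IRF half-site GAAAC and the AP-1 site TGANTCA. Of 32851 mouse promoters, 7.02%, 2.98%, 39.7% and 6.75% held these letters. The 3 genes had matches to the half-site only, which overlapped no other motif. They are shown in capitals in the stretches that no annotated exon covers, and, for Cd274, in 25-base windows because an exon of the divergent gene Plgrkt covers both matches.
Cd274, bases 176 to 172 before the start in capitals, chr19:29367252-29367276, forward strand: ccgaagcctaGTTTCgttttttctt
Cd274, bases 72 to 68 before the start in capitals, chr19:29367356-29367380, forward strand: ggtggcttcgGTTTCacagacagcg
Cd274, the 47 bases before the start, chr19:29367391-29367437, forward strand: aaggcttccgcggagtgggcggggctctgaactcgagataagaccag
Pdcd1lg2, the 250 bases before the start, chr19:29410669-29410918, forward strand: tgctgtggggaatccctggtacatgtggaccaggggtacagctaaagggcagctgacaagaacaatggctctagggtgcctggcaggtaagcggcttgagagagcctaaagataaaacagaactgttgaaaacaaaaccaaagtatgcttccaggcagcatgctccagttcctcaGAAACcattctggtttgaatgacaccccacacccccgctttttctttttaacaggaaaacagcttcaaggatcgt
Pdcd1, the 250 bases before the start, chr1:94052554-94052803, reverse strand: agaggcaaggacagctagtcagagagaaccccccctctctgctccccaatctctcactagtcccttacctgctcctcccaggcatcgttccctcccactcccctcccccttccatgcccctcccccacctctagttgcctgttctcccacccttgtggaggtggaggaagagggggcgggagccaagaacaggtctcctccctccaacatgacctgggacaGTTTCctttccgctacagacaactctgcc
A half-site of 5 letters that 39.7% of promoters hold does not set these genes apart.

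After filtering, 7530 control cells with a median of 22213 UMIs and 6761 knockout cells with a median of 15987 UMIs were analysed, and 13 cell barcodes occurred in both libraries. Fermt2, the targeted gene, was at 38.8 counts per 1000000 UMIs (CPM) in control and 17.9 CPM in knockout tumour cells, a log2 ratio of -1.12 (interval -1.20 to -1.04), where a 3′ count does not read the edit itself. In fibroblasts, which came from the mice, it was at 392 and 259 CPM. Cells were placed by 1 gate gene each, except that the mature dendritic gate also needed a Ccr7 UMI. The classes are named by gate: Epcam for tumour cells, C1qa for macrophage-like, Ly6c2 for monocyte-like, S100a8 for neutrophil-like, Fscn1 with Ccr7 for mature dendritic-like, Cd3e for T and Ncr1 for NK cells. The further gates are named where they appear. Summed tumour epithelial markers stood at 5450 and 4815 CPM in the Epcam gate and at 89.0 to 95.2 CPM in the macrophage and T gates. The Epcam gate nevertheless held 75 control cells (2.65%) and 100 knockout cells (5.16%) with at least 200 CPM of a leukocyte panel of 7 genes (Ptprc, Cd52, Lcp1, Laptm5, Coro1a, Tyrobp and Srgn), chosen after their values were seen, at a summed 1516 and 1264 CPM against 11.5 and 14.6 CPM in the other Epcam cells. Comparisons of whole lists between the libraries and of members over the Epcam gate hold these cells unless said otherwise, and those within tumour cells leave them out where this is stated. The T gate held 14 control and 19 knockout cells with at least 200 CPM of fibroblast markers, and leaving them out moved the Pdcd1 ratio in Cd8a T cells from -0.31 to -0.34.

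Cd274 RNA was found in every gated class, at levels that differed by more than an order of magnitude between classes. In the control library the order by level was neutrophil-like cells at 921 CPM (869 to 976), mature dendritic-like cells at 405 CPM (353 to 463), Foxp3 T cells at 394 CPM (346 to 447), Xcr1-gated type 1 dendritic-like cells at 378 CPM (302 to 468), monocyte-like cells at 270 CPM (240 to 304) and macrophage-like cells at 254 CPM (248 to 260). The intervals of the mature dendritic, Foxp3 T and type 1 dendritic cells overlapped, as did those of the monocyte- and macrophage-like cells. NK cells stood at 211 CPM, T cells with neither Cd8a nor Foxp3 at 159 CPM, Cd209a-gated type 2 dendritic-like cells at 143 CPM, Cpa3-gated mast or basophil cells at 123 CPM and Cd8a T cells at 104 CPM. Lower levels were found in Cdh5-gated endothelial cells at 30.3 CPM, Dcn-gated fibroblasts at 26.1 CPM, tumour cells at 19.3 CPM (18.5 to 20.1) and Siglech-gated plasmacytoid dendritic-like cells at 12.2 CPM (3.97 to 28.5). In the knockout library neutrophil-like cells stood at 1017 CPM (935 to 1104), mature dendritic-like cells at 791 CPM (735 to 849) and fibroblasts lowest, at 36.4 CPM (29.5 to 44.5). With every gate set at 1 UMI, neutrophil-like cells had 614 CPM (584 to 646) and 652 CPM (616 to 690), and mature dendritic-like cells, 9 and 48, had 573 CPM (475 to 685) and 836 CPM (771 to 905). The order of the 2 classes in the knockout library thus depended on the gate.

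**Figure D1:**
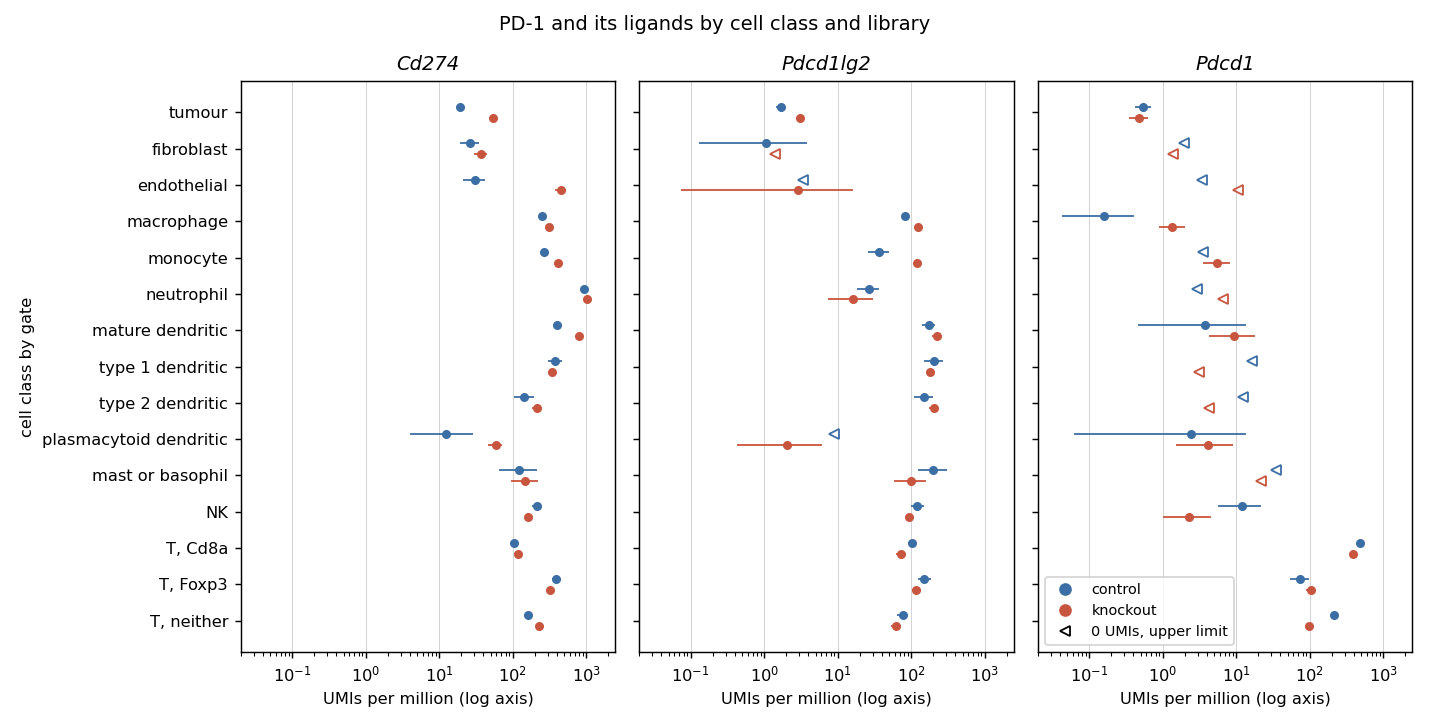
Counts per 1000000 UMIs (CPM) of Cd274, Pdcd1lg2 and Pdcd1 (log axes) in each gated class of the control (blue) and knockout (red) library. Bars are 95% Poisson intervals and open triangles mark the upper limit where no UMI was counted. Cd274 was highest in the neutrophil gate at 921 and 1017 CPM, and the Pdcd1 points of the T cell gates stand apart from those of the other classes.

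Cd274 was higher in knockout than in control tumour cells. The gene was at 19.3 CPM (18.5 to 20.1) in 2835 control cells and 53.1 CPM (51.6 to 54.6) in 1939 knockout cells, a log2 ratio of 1.46 (1.39 to 1.53), and the intervals did not overlap. At least 1.5-fold higher levels in the knockout library were seen for 16.3% of the 15415 genes with 50 or more UMIs in tumour cells, at least 2-fold higher levels for 8.27% and at least 1.5-fold lower levels for 5.15%, and the median log2 ratio over all genes was 0.11. Without the Epcam cells that held leukocyte RNA, Cd274 was at 16.9 CPM (16.2 to 17.6) and 50.6 CPM (49.2 to 52.1), a log2 ratio of 1.58. Cells outside every gate that had at least 1000 CPM of tumour epithelial markers and little of the leukocyte panel, 1036 control and 583 knockout cells, gave 20.4 CPM (18.9 to 22.0) and 63.0 CPM (59.8 to 66.5), so tumour cells low in Epcam had a like difference.

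The Cd274 UMIs of tumour cells were concentrated in a minority of the cells. Of the control cells 25.0% (23.4 to 26.6) and of the knockout cells 45.0% (42.8 to 47.3) held a Cd274 UMI, 23.8% and 44.1% of those without leukocyte RNA, and of the whole gate 4.02% and 13.9% held 5 or more. The 10% of cells with the most Cd274 UMIs held 81.2% of them in the control and 71.2% in the knockout library. At an equal depth of 5000 UMIs per cell the shares were 6.17% (5.31 to 7.13) and 14.6% (13.0 to 16.2), and at 1000 UMIs they were 1.84% (1.37 to 2.40) and 4.95% (4.03 to 6.02). Fibroblasts, a class with little Cd274, had 0 of 68 cells with a UMI at 1000 UMIs in each library, which the exact interval limits to 5.28%, so 68 cells are too few to set a background for the tumour shares. Both the share of positive cells and the mean number of UMIs per positive cell, 3.33 and 5.92, were higher in the knockout library.

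Within tumour cells Cd274 followed the interferon response lists. Tumour cells without leukocyte RNA were divided into 5 bins by their summed level of 30 interferon gamma response genes, with the same edges for both libraries and cells under 5000 UMIs left out. In the control library Cd274 was at 3.63, 4.73, 7.79, 15.7 and 68.7 CPM from the lowest to the highest bin, a log2 difference of 4.24 between the ends. In the knockout library it was at 4.07, 10.1, 14.4, 29.8 and 144 CPM, a log2 difference of 5.15. The level was higher in each step in both libraries, and the largest step in both was into the highest bin. In that bin 55.0% of control and 74.8% of knockout cells held a Cd274 UMI, against 10.9% and 11.9% in the lowest.

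**Figure D2:**
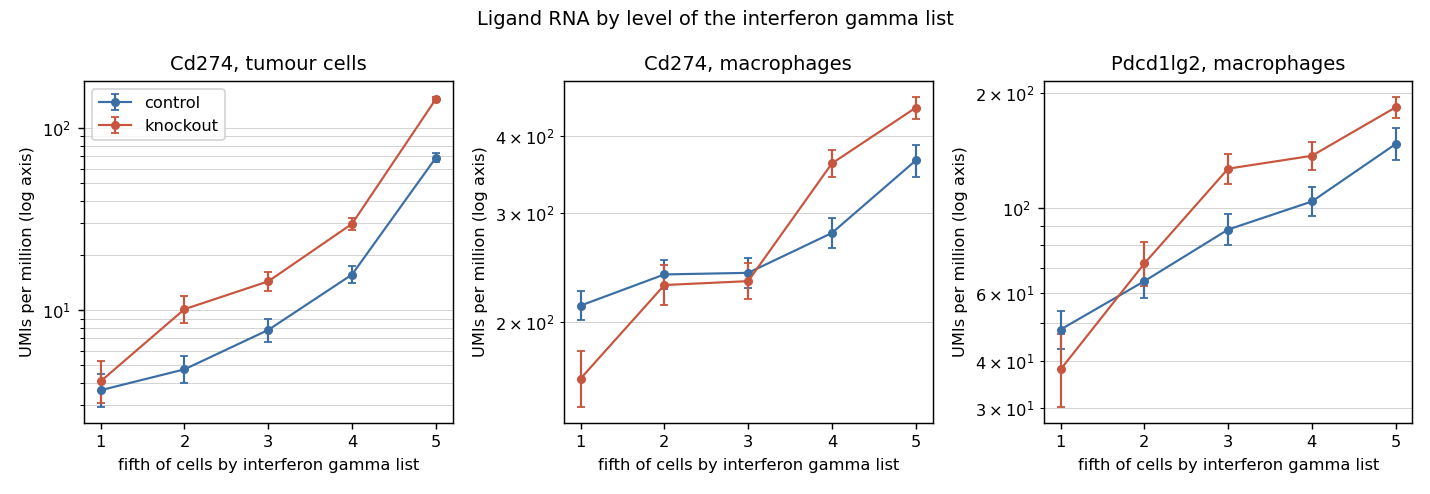
Cd274 in tumour cells without leukocyte RNA, and Cd274 and Pdcd1lg2 in macrophage-like cells (CPM, log axes), in 5 bins of cells ordered by the summed interferon gamma list, with edges shared by the libraries and 95% Poisson intervals. In tumour cells Cd274 went from 3.63 to 68.7 CPM in the control (blue) and from 4.07 to 144 CPM in the knockout (red) library.

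Cells in the same bin of the summed list still differed in Cd274 between the libraries. The sum weighs abundant genes most, such as Cd74 (798 and 796 CPM) and Psmb8 (644 and 710 CPM) in these cells. Less abundant genes such as Gbp2 (113 and 223 CPM) weigh less. The log2 ratio of the sum was 0.33 and the median over the genes of the list 0.56. A shared bin is thus not an equal level of each gene. Over the 5 bins the knockout against control log2 ratio of Cd274 averaged 0.83, from 0.16 in the lowest bin to 1.10 in the next, against 1.58 over all these cells. In the lowest bin the intervals of the libraries overlapped (2.93 to 4.46 and 3.08 to 5.27 CPM), and in the other 4 they did not. Bins by the type I interferon list gave an average of 0.89, and bins by MHC class I, NF-kB feedback, hypoxia, cell cycle, mesenchymal or AP-1 genes left averages of 1.57 to 1.69. The knockout library had 520 cells in the highest bin of the interferon gamma list and 286 in the lowest, and the control library 393 and 626. With edges set in each library apart, and with the leukocyte cells kept, the average was 1.40 in place of 0.79 with shared edges.

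Other programmes went with smaller differences in Cd274. Between the highest and lowest bin of the cell cycle list the log2 difference in Cd274 was 0.55 in the control and -0.21 in the knockout library. For hypoxia genes it was -1.01 and -0.98, with Cd274 at 21.3 CPM in the lowest and 10.6 CPM in the highest bin of the control library and at 56.0 and 28.4 CPM in the knockout library. Cd274 was thus lower in the cells with the most hypoxia RNA in both libraries. The same held for mesenchymal genes, with -0.85 and -1.02, so this was not particular to hypoxia. For AP-1 and immediate early genes the differences were 0.13 and 0.49. Bins by MHC class I genes gave 0.24 and 1.09, and by NF-kB feedback genes -0.66 and 1.32, which differed in size or sign between the libraries.

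The same cells were then compared at an equal depth of 10000 UMIs by whether they held a Cd274 UMI. Among tumour cells without leukocyte RNA, 274 control cells held one and 2407 did not (10.2%), and 385 and 1424 knockout cells (21.3%). Among 8023 genes, 0.86% were at least 1.5-fold higher in cells with Cd274 in both libraries and 0.262% at least 1.5-fold lower. Of the 30 genes of the interferon gamma list 20 were higher in both libraries by that measure and 0 lower, with median log2 ratios of 1.18 and 1.16 against 0.04 and 0.01 over all genes. Of 26 measured type I interferon genes 15 were higher and 0 lower. Among the 16 genes of interferon receptors and signalling 4 were higher, with Stat2, Irf1 and Socs1 among them, while the receptor genes Ifngr1 (0.02 and 0.09), Ifngr2 (0.12 and 0.00) and the kinase gene Jak2 (0.16 and 0.21) lay near 0.

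The genes with the largest ratios between cells with and without Cd274 were mostly ones known as interferon-induced. Ranked by the interval bound nearer to 0 in either library, the 10 highest were Gbp5, Cxcl10, Iigp1, Gm4951, Gbp6, Rsad2, Gm4841, Gbp4, Gbp10 and Irgm2. Cxcl10, a chemokine that draws activated T cells, had log2 ratios of 2.02 (1.89 to 2.14) in the control and 2.91 in the knockout library. Gbp5, a guanylate-binding protein of cell-autonomous defence, had 2.40 and 2.79, and Iigp1, an immunity-related GTPase, 2.03 and 1.74. Irf1, the transcription factor that acts on Cd274, had 0.66 and 0.99. Cxcl9, another T cell chemokine, was at -0.08 in the control and 2.27 in the knockout library. The 5 lowest were Prkg1, Ptn, Prlr, Hspb1 and Gpx3. Genes known from basal (myoepithelial) gland cells, chosen after their values were seen, stood lower in the same comparison, with Krt14 at -0.57 and -0.87, Acta2 at -3.74 (-9.05 to -1.23) and -6.23 (-9.28 to -4.37), and Tagln at 2 against 138 and 0 against 312 thinned UMIs. Summed mammary gland markers were at 264 and 464 CPM in these tumour cells, and the part of gland cells in the lowest genes was not tested. Prlr, the prolactin receptor, had -1.59 and -2.25, and Prkg1, a cGMP-dependent kinase, was counted 0 times in the 274 control cells with Cd274 against 284 times in the 2407 without, and 4 and 484 times in the knockout cells.

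**Figure D3:**
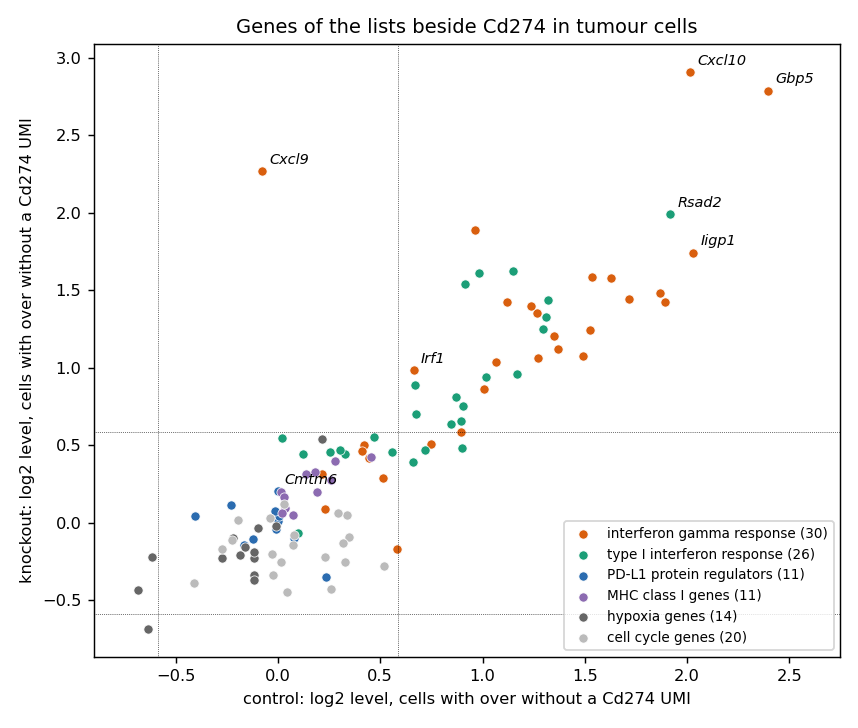
Log2 ratio of the mean level in tumour cells with over those without a Cd274 UMI, at 10000 UMIs per cell and without cells holding leukocyte RNA, in the control (x axis) and knockout (y axis) library. Each point is 1 gene of a list, and dotted lines mark 1.5-fold. Interferon genes such as Gbp5 (2.40 and 2.79) lie at the upper right, and no gene for PD-L1 protein regulators or the cell cycle lies past both dotted lines in 1 direction, whereas of the hypoxia genes Adm does (-0.64 and -0.68).

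Of 11 genes that act on PD-L1 protein, 0 passed 1.5-fold in either direction with Cd274 in both libraries. Among them Cmtm6, which protects PD-L1 from degradation, had -0.00 and 0.20. With the leukocyte cells kept, 1.64% of 8152 genes were higher in both libraries, 23 of the 30 interferon gamma genes among them. Some leukocyte markers were also higher in both, with 3 of 7 measured for mature dendritic cells (Ccr7, Ccl22 and Il4i1). For macrophages these were 2 of 6 (Mrc1 and Csf1r), and for neutrophils 1 of 2 (S100a9). The other macrophage markers, C1qa, C1qb, C1qc and Apoe, had log2 ratios of 0.07 to 0.74 in the control library. In the knockout library they had -1.53 to -0.59. The intervals of C1qb and C1qc included 0 in both libraries. The median of the macrophage list was 0.72 and -0.71. The other neutrophil marker, S100a8, had -0.34 and 0.94.

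Between the libraries the interferon lists themselves were also higher in the Epcam gate of the knockout library. Of the interferon gamma list 15 of 30 genes were at least 1.5-fold higher and 0 lower, against the 16.3% and 5.15% of all genes given above, with a median log2 ratio of 0.55. Gbp2 was at 114 and 220 CPM and Iigp1 at 157 and 310 CPM, while Irf1 was at 349 and 318 CPM. Cxcl10 did not differ beyond counting error, with a log2 ratio of 0.00 (-0.03 to 0.04). Of the type I list 13 of 26 were higher and 0 lower, with a median of 0.56. The receptor and signalling list had 3 of 16 higher and 0 lower, with Socs1 and Stat2 among the 3. In the same list Ifngr1 stood at 34.6 and 25.0 CPM and Jak2 at 215 and 186 CPM. Of the 11 PD-L1 regulators 0 were higher and 1 was lower, Cmtm3, at 38.7 and 24.9 CPM. Among 6 measured ligands of the B7 family, the family to which both PD-1 ligands belong, Vtcn1 (log2 ratio 1.40) and Cd80 (0.99) were higher and Vsir (-0.67) was lower. Without the cells holding leukocyte RNA, Vtcn1 had 1.28 (1.01 to 1.54), Vsir -0.91 (-1.19 to -0.64) and Cd80 0.62 (-0.18 to 1.43), from only 26 and 31 UMIs. The counts for the interferon lists without those cells were 15 of 30 higher and 1 lower (Serpina3g, at -0.69), and 13 of 26 higher and 0 lower, with medians of 0.56 and 0.59. Cxcl10 then had 0.07 (0.03 to 0.11).

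The genes around Cd274 were compared in tumour cells without leukocyte RNA. Of 16 other genes with at least 50 UMIs whose start lay within 500 kb, 7 were at least 1.5-fold higher in the knockout library and 0 lower, where 15.2% of all genes were higher and 5.5% lower. Their median log2 ratio was 0.56, and 0.23 for the 12 that code for proteins, beside 0.29 for 546 genes of chromosome 19 and 0.10 for all 15078 genes. Plgrkt, the divergent neighbour of Cd274, was at 43.5 and 64.9 CPM, a log2 ratio of 0.58 (0.52 to 0.63), and Ermp1 at 17.5 and 26.8 CPM, 0.61. Jak2, which lies at a lower coordinate of the chromosome than Cd274, was at 212 and 182 CPM, -0.23. Gm36043, an RNA antisense within Cd274, was at 0.328 and 1.04 CPM, 1.66 (1.11 to 2.24), and reads of the pair cannot be told apart where the counting did not use the strand. No neighbour that codes for a protein reached the 1.58 of Cd274.

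**Figure D4:**
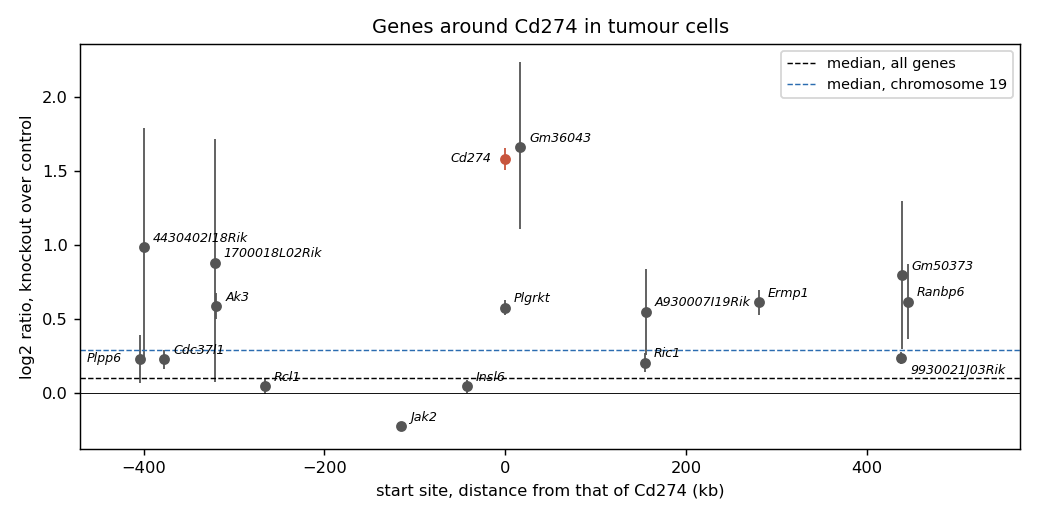
Log2 ratio of knockout over control in tumour cells without leukocyte RNA for genes with at least 50 UMIs, by distance of the start site from that of Cd274 in kb, with 95% intervals. Cd274 (red) stands at 1.58 and its antisense RNA Gm36043 at 1.66, while the protein-coding neighbours lie from -0.23 to 0.99.

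In the larger myeloid classes Cd274 differed less between the libraries. Macrophage-like cells had 254 CPM (248 to 260) in 1376 control and 307 CPM (299 to 315) in 1070 knockout cells, a log2 ratio of 0.27 (0.22 to 0.32), and in this class 6.54% of genes were at least 1.5-fold higher and 2.14% lower. In monocyte-like cells, of which there were 119 and 381, Cd274 was at 270 and 412 CPM, a log2 ratio of 0.61 (0.43 to 0.79), and 0.30 (0.08 to 0.52) without cells that held another gate gene. Neutrophil-like cells, 420 and 159, had overlapping intervals, with a log2 ratio of 0.14 (-0.00 to 0.29). In that class all 27 measured interferon gamma genes were at least 1.5-fold higher in the knockout library, where 22.2% of genes were higher and 18% lower. Cd274, at 0.14, stood apart from that list in this gate. Summed monocyte markers stood at 282 and 1152.5 CPM in the gate and mature dendritic markers at 32.6 and 381 CPM. Macrophage markers were at 252 and 240 CPM and neutrophil markers at 88319 and 74704 CPM. The mature dendritic markers include Ccl5 and also stood at 3095 and 3585 CPM in NK cells. The part of RNA from other cells in the difference of the interferon gamma list was not tested.

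Several smaller classes rested on few cells. In mature dendritic-like cells Cd274 was at 405 CPM in 18 control cells and 791 CPM in 49 knockout cells, but as a mean over cells the log2 ratio was -0.05 in place of 0.96. Of their Cd274 UMIs 21.3% and 14.5% came from 1 cell. Summed tumour epithelial markers stood at 2050 and 385 CPM in this gate and fibroblast markers at 9.38 and 3775 CPM, and the part of those cells in the ratio was not tested. Endothelial cells had 30.3 CPM in 45 control and 448 CPM in 28 knockout cells, of which 10 held a UMI and 1 held 33.5% of all. Their summed interferon gamma list was at 4428 and 13593 CPM and their macrophage markers at 219 and 789 CPM, whose part was not tested. Plasmacytoid dendritic-like cells had 5 UMIs in 26 control cells, 12.2 CPM, and 85 UMIs in 109 knockout cells, 58.4 CPM, beside fibroblast markers at 1504 and 1.37 CPM.

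NK and T cells carried Cd274 too. NK cells were lower in the knockout library, at 211 CPM (181 to 245) in 111 cells against 161 CPM (148 to 175) in 399 cells, a log2 ratio of -0.39 (-0.64 to -0.14), where 7.56% of genes were at least 1.5-fold higher and 4.72% lower. The interval included 0 with a gate of 1 UMI, at -0.15 (-0.44 to 0.14), and without cells that held another gate gene, at -0.24 (-0.53 to 0.06). Cd8a T cells had overlapping intervals, 104 CPM (91.6 to 118) and 119 CPM (105 to 134). Foxp3 T cells, the regulatory subset, had 394 and 322 CPM, a log2 ratio of -0.29, but 1 of the 74 control cells held 20.2% of the UMIs. Without the 1% of cells with the most Cd274 the ratio was -0.09, and with a gate of 1 UMI it was -0.01. T cells with neither Cd8a nor Foxp3 had 159 CPM (141 to 180) and 231 CPM (214 to 249). Over all T cells the log2 ratio was 0.41, and 0.32 without the T cells rich in fibroblast RNA.

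In macrophage-like cells both ligands also followed the interferon gamma list. In 5 bins of macrophages with at least 3000 UMIs by the interferon gamma list, Cd274 was at 213, 239, 240, 279 and 365 CPM in the control and 162, 230, 233, 361 and 444 CPM in the knockout library, log2 differences of 0.78 and 1.45 between the ends. Within bins the knockout against control log2 ratio averaged 0.03, from -0.39 to 0.37, and was above 0 in 2 of 5 bins. Pdcd1lg2 in the same cells was at 48.2, 64.5, 88.0, 104 and 147 CPM and at 37.9, 71.7, 127, 137 and 184 CPM, log2 differences of 1.61 and 2.28. Its average within bins was 0.21, and it was higher in the knockout library in 4 of 5.

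Pdcd1lg2 was found in leukocytes, and in the Epcam gate nearly all of it lay in cells with leukocyte RNA. In the control library the order by level was type 1 dendritic-like cells at 203 CPM (148 to 271), mast or basophil cells at 199 CPM (123 to 304) in only 18 cells, mature dendritic-like cells at 173 CPM (139 to 212), Foxp3 T cells at 151 CPM (122 to 185) and type 2 dendritic-like cells at 150 CPM (109 to 201). These 5 intervals overlapped. NK cells had 121 CPM, Cd8a T cells 102 CPM, macrophage-like cells 82.3 CPM and T cells with neither Cd8a nor Foxp3 76.3 CPM. Neutrophil-like cells, highest in Cd274, had 26.3 CPM (18.1 to 36.9) and 16.0 CPM (7.33 to 30.4). Plasmacytoid dendritic-like cells had 0 UMIs in 26 control cells, which the interval limits to 9.02 CPM, and 3 UMIs in 109 knockout cells. Fibroblasts had 2 UMIs in the control and 0 in the knockout library, and endothelial cells 0 and 1.

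In the Epcam gate Pdcd1lg2 was at 1.68 CPM (1.46 to 1.93) and 3.03 CPM (2.69 to 3.40). Of its 205 and 295 UMIs 94.6% and 92.9% lay in the 75 and 100 Epcam cells with leukocyte RNA, where the level was 61.3 and 57.3 CPM. Those cells also held Cd86 at 155 and 125 CPM and Mgl2, from the list of type 2 dendritic markers, at 121 and 95.5 CPM, beside Krt18 at 2074 and 1827 CPM. Their summed type 2 dendritic markers stood at 142 and 134 CPM and mature dendritic markers at 320 and 334 CPM. Macrophage markers were at 270 and 420 CPM, monocyte markers at 191 and 280 CPM and neutrophil markers at 273 and 168 CPM. The leukocyte types behind this RNA were not told apart. In the remaining tumour cells 11 and 21 UMIs were left, 0.0925 CPM (0.0462 to 0.166) and 0.227 CPM (0.140 to 0.347). For Cd274, 85.3% and 90.7% of the UMIs of the gate remained.

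Between the libraries Pdcd1lg2 was higher in macrophage- and monocyte-like cells of the knockout and lower in Cd8a T and NK cells. Macrophage-like cells had 82.3 CPM (78.8 to 85.9) and 124 CPM (119 to 129), a log2 ratio of 0.59 (0.51 to 0.68), and at 2000 UMIs 11.9% (10.2 to 13.8) and 20.2% (17.6 to 22.9) of them held a UMI. Monocyte-like cells had 36.3 CPM (25.7 to 49.8) and 119 CPM (109 to 130), 1.72 (1.24 to 2.23), where 9.54% of genes were at least 1.5-fold higher and 4.97% lower. The thinned share of monocyte-like cells with a UMI was 5.08% (1.89 to 10.7) and 13.0% (9.72 to 16.8), with intervals that overlapped. Summed type 2 dendritic markers stood at 64.9 and 136 CPM in the monocyte gate and mature dendritic markers at 357 and 791 CPM. Macrophage markers went the other way, at 3832 and 2860 CPM. The mature dendritic list, which includes Ccl5, is not particular to those cells. It also stood at 3095 and 3585 CPM in NK cells and 973 and 1379 CPM in T cells. The part of RNA from other cells in the ratio was not tested. Cd8a T cells had 102 and 72.6 CPM, a log2 ratio of -0.49 (-0.78 to -0.20), and NK cells 121 and 94.0 CPM, -0.36 (-0.69 to -0.03). The intervals of the ratio for type 1 and type 2 dendritic-like and for neutrophil-like cells included 0.

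The division of UMIs over classes joined the level per cell with the number of cells in the library. Macrophage-like cells held 45.7% of all Cd274 UMIs in the control and 27.0% in the knockout library, and tumour cells 16.6% and 24.6%. Neutrophil-like cells held 8.17% and 2.72%, monocyte-like cells 2.00% and 8.18%, the 4 dendritic gates together 2.46% and 6.83%, and cells outside every gate 16.2% and 17.9%. For Pdcd1lg2 macrophage-like cells held 57.5% and 40.0%, and monocyte-like cells 1.04% and 8.70%. Cell numbers depend on the digestion and the sort, so these shares describe the libraries and not the tumours. Over all cells Cd274 was at 69.8 and 123 CPM, Pdcd1lg2 at 18.0 and 33.4 CPM and Pdcd1 at 8.97 and 10.3 CPM.

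**Figure D5:**
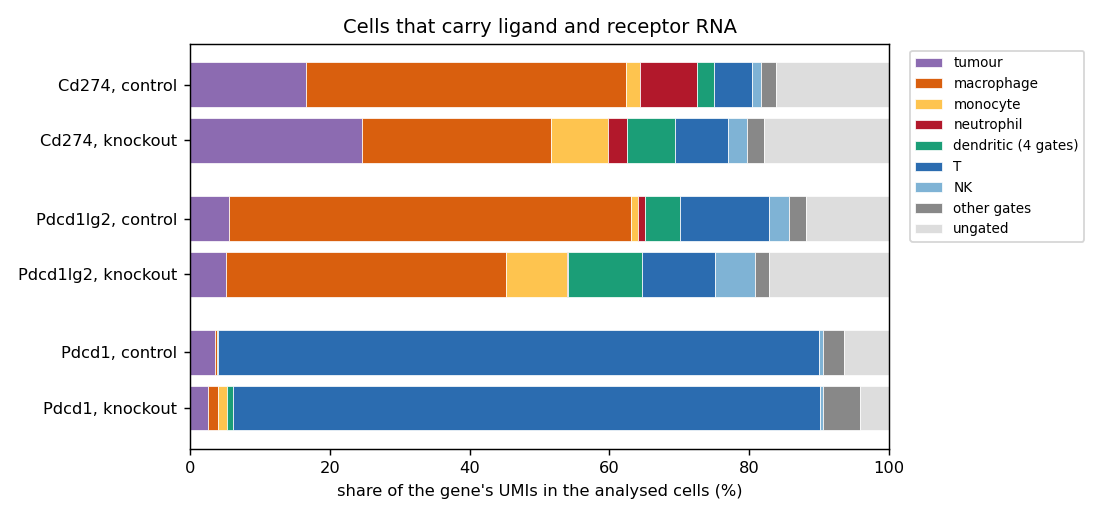
Share of each gene's UMIs (%) in the gated classes, for the control and knockout library. Macrophage-like cells held 45.7% of Cd274 UMIs in the control and 27.0% in the knockout library, and T cells held 86.0% and 83.9% of those of Pdcd1.

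Pdcd1, the receptor, was found in T cells. They held 86.0% of its UMIs in the control and 83.9% in the knockout library, at 333 CPM (317 to 350) and 199 CPM (189 to 210), a log2 ratio of -0.74 (-0.84 to -0.64). In this class 5.47% of genes were at least 1.5-fold higher in the knockout library and 9.29% lower. Apart from cells positive for several gates, the other classes were at 11.9 CPM or lower in both libraries, and in tumour cells 66 and 46 UMIs gave 0.541 and 0.473 CPM. Macrophage-like cells had 4 and 25 UMIs, of which 72.0% of the latter were in 1 cell. The share of macrophage-like cells with a Pdcd1 UMI, 0.218% and 0.467% at median depths of 18567 and 16520 UMIs, set the background against which the T cells stood, whose shares were 53.7% and 38.3% at 6864 and 7206 UMIs.

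Within T cells Pdcd1 was lower in the knockout library in Cd8a T cells and in those with neither Cd8a nor Foxp3, and not in Foxp3 T cells. Cd8a T cells were the highest, at 484 CPM (456 to 512) in 184 control cells and 391 CPM (366 to 417) in 190 knockout cells, a log2 ratio of -0.31 (-0.43 to -0.18), and 7.79% of genes were at least 1.5-fold higher and 6.05% lower in this subset. At 2000 UMIs per cell 58.5% (51.0 to 65.7) and 35.6% (28.8 to 42.9) of them held a Pdcd1 UMI. T cells with neither Cd8a nor Foxp3 had 216 CPM (194 to 240) and 97.1 CPM (86.2 to 109), -1.15 (-1.38 to -0.93), beside fibroblast markers at 4596 and 943 CPM, and the ratio was -1.38 without the T cells rich in fibroblast RNA. Foxp3 T cells had 73.3 CPM (53.4 to 98.0) from 45 UMIs and 103 CPM (88.6 to 119) from 182 UMIs, 0.49 (0.01 to 1.00), in a subset where 7.77% of genes were at least 1.5-fold higher and 6.86% lower. The Foxp3 interval included 0 with doubled gate minima, at 0.25 (-0.22 to 0.75), and without the top 1% of cells, at 0.48 with a lower bound of -0.02. In the control library the 3 intervals did not overlap and Foxp3 T cells were the lowest, whereas in the knockout library the Foxp3 T cells and those with neither gene overlapped. The number of UMIs per positive Cd8a cell was 7.27 and 7.65, while the share of positive cells without thinning was 85.3% and 62.6%.

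Genes of memory and naive T cells were higher in the Cd8a T cells of the knockout library. Of 10 such genes 8 were at least 1.5-fold higher and 0 were lower, beside 7.79% and 6.05% of all genes in this subset. Their median log2 ratio was 1.51 and that of all genes was -0.02. Tcf7, which keeps T cells able to renew, was at 22.9 and 86.3 CPM, and Slamf6, a surface marker of the same state, at 16.5 and 79.5 CPM. Cytotoxic genes went the other way for 6 of 14, among them Gzma at 1122 and 74.7 CPM and Gzmb at 864 and 412 CPM, with 2 higher, a share near the background. Of 16 measured checkpoint and exhaustion genes 2 were higher, Tox (290 and 716 CPM) and Batf (50.4 and 92.3 CPM), and 3 lower, Rgs16, Havcr2 and Cd160, where the share of higher genes was also near the 7.79% of all genes.

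Cd8a T cells were also compared at 3000 UMIs by whether they held a Pdcd1 UMI, 122 against 58 control and 87 against 100 knockout cells. In these cells 2.32% of 1770 genes were at least 1.5-fold higher with Pdcd1 in both libraries and 1.47% lower. Of 13 measured checkpoint genes 3 were higher in both and 0 lower: Tox, with log2 ratios of 0.65 and 1.03, Entpd1, which encodes the ectonucleotidase CD39, with 0.79 and 1.62, and Rgs16, with 1.32 and 1.13. Havcr2, which encodes TIM-3, had -0.14 in the control and 1.79 in the knockout library. Of 6 measured memory genes 3 were lower in both: Lef1 (-1.61 and -2.17), Tcf7 (-1.19 and -1.20) and Klf2 (-0.79 and -0.84). The control interval of Tcf7, -2.45 to 0.06, included 0. Among 10 cytotoxic genes Gzma was higher in both, at 2.02 and 2.47, and Ifng lay at 0.00 and 0.01. In Foxp3 T cells, of which only 12 control and 33 knockout cells held a Pdcd1 UMI, 1.01% of genes were higher with Pdcd1 in both libraries and 0.503% lower. Of 12 checkpoint genes 1 was higher in both, Tigit, with 1.69 (0.19 to 3.10) and 0.71 (-0.45 to 1.78).

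Ifng, which encodes the interferon gamma known to induce Cd274, was carried by lymphocytes. T cells held 76.8% of its UMIs in the control and 64.6% in the knockout library, and NK cells 9.22% and 22.0%. Per cell class it stood at 374 and 557 CPM in Cd8a T cells and at 148 and 169 CPM in NK cells, and in tumour cells at 0.107 and 0.349 CPM. Of 9 genes of PD-1 signalling in Cd8a T cells 1 was at least 1.5-fold higher and 0 lower, near the 7.79% and 6.05% of all genes, so the count is no result about the list. That gene was Sh2d1a, at 65.3 and 114 CPM. Ptpn11, which encodes SHP-2, was at 56.8 and 70.0 CPM and its relative Ptpn6 at 129 and 97.5 CPM. Cd80, whose product binds PD-L1 on the same cell, was at 181 and 138 CPM in macrophage-like and 308 and 673 CPM in neutrophil-like cells.

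Joint detection of both ligands was most frequent in mature dendritic-like cells. At 3000 UMIs, 7 of 11 control and 14 of 29 knockout mature dendritic-like cells with a Cd274 UMI also held a Pdcd1lg2 UMI, 63.6% and 48.3%, against 16.7% and 9.09% of those without Cd274. The gate had only 17 and 40 cells at this depth, of which 8 and 15 held Pdcd1lg2. The shares without Cd274 thus rest on very few cells. In macrophage-like cells the shares were 20.3% against 15.8% in the control and 28.1% against 20.7% in the knockout library. In Cd8a T cells Pdcd1 was seen no more often beside Cd274 RNA, in 56.2% of cells with and 59.1% of cells without Cd274 in the control, and in 42.4% and 53.9% in the knockout library.

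Across the 21 points given by classes with at least 50 cells in a library, the log2 levels of Cd274 and Pdcd1lg2 had a Pearson r of 0.69, and Cd274 and Pdcd1 of 0.04. These points share 2 libraries and subsets of the T cells are not independent, so r is a description. The genes most like Cd274 were Rhog (0.94), Pde4b (0.93), Rab11fip1 (0.92), Cap1 (0.92) and Snx20 (0.92), each highest in the neutrophil-like cells of the knockout library. For Pdcd1lg2 they were Bcl2a1d (0.94), Ahcyl2 (0.92), Cd52 (0.92), Ptpn7 (0.91) and Adap1 (0.91). For Pdcd1 they were Crmp1 (0.95), Bcl11b (0.94), Themis (0.94), Gm30054 (0.93) and Cd3g (0.93), each highest in a T cell subset.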

How the data were processed

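The 2 libraries of cells from 4T1 tumours, control and K2-KO, were analysed, 1 per genotype. The deposited matrix holds whole-number UMI counts per gene and cell, not normalized. Per the file headers it was written by Cell Ranger 6.0.1, and the submitters' processing notes name Cell Ranger 2.1.1 and mm10. Barcode suffixes 1 and 2 were matched to the libraries numbered 1 and 2 in the labels, a match that rests on that number alone. The 3′ kit counts RNA ends, so how reads of overlapping genes were divided is not given in the sources used here.

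Of 8038 control and 7250 knockout barcodes (214163620 and 180774106 UMIs), cells with at least 500 UMIs, 200 genes and at most 20% mitochondrial UMIs were kept (7747 and 6962). Scrublet in scanpy 1.11.5 called 217 (2.80%) and 201 (2.89%) doublets, which were left out. A gate gene needed both a minimum count and a minimum CPM. For the first 5 gates these were Epcam 2 UMIs and 100 CPM, C1qa 3 and 500, S100a8 10 and 2000, and Cd3e and Ncr1 1 and 100. The later gates needed 1 to 3 UMIs and 100 or 500 CPM, and the mature dendritic gate also a Ccr7 UMI. Cells positive for 2 or more of the first 5 gates were set aside as mixed (58 and 97). T cells were divided by a UMI of Cd8a or Foxp3.

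Levels are UMIs of the gene per 1000000 UMIs of the class (CPM) with exact Poisson intervals, ratios have exact conditional binomial intervals, and shares of cells Clopper-Pearson intervals (scipy 1.17.1). All cover counting error only. Shares were thinned to 5000 UMIs in tumour cells and 2000 elsewhere, joint detection to 10000 (Cd274, genes with at least 200 thinned UMIs in each library) or 3000 UMIs (Pdcd1, at least 50). Genes of a list were counted as higher or lower past 1.5-fold, with at least 20 UMIs. No p-value was computed. Named genes were the 3 members, the 5 most alike by Pearson r of log2(CPM + 1) among genes with at least 100 UMIs, the 10 highest and 5 lowest with Cd274, genes within 500 kb of Cd274, and up to 4 extremes of each list, to which genes known in this pathway were added after their values were seen. The members and lists were chosen with earlier results of these data known. The leukocyte panel, the set of tumour cells low in Epcam and the bins of macrophages were chosen after the data were seen. Ratios, intervals and thinning were tested on simulated data. List genes not analysed here are Mx1, Mx2, Ncr3lg1, Hhla2, Ca9, Ero1a and H2-L. Of the matrix's gene identifiers 99.6% matched GENCODE M21.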

Additional observations from a re-analysis of the deposited data

Results flagged for a closer look

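In 3 cases a gene stood higher in the knockout library in one class and lower in another, with both counting intervals on their side of 0. The difference between the classes was not tested, since each class has 1 library per genotype. For Pdcd1 the log2 ratio was 0.49 in Foxp3 T cells and -0.31 in Cd8a T cells. The Foxp3 interval included 0 with doubled gate minima, at 0.25 (-0.22 to 0.75), and without the top 1% of cells, at 0.48 with a lower bound of -0.02. Cd274 had 0.61 in monocyte-like and -0.39 in NK cells. The NK interval included 0 with a gate of 1 UMI, at -0.15 (-0.44 to 0.14), and without cells that held another gate gene, at -0.24 (-0.53 to 0.06), where the monocyte-like ratio was 0.30 (0.08 to 0.52). Pdcd1lg2 had 0.59 in macrophage-like cells and -0.49 in Cd8a T cells. The pairs were picked after the values were seen.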

How the results depend on the processing

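No paired analysis was possible because each genotype has 1 library. Of 141 recomputed class ratios 113 stayed within the counting interval first found, 27 left it and 1 whose interval lay off 0 changed sign: Cd274 in mature dendritic-like cells, at -0.049 as a mean over cells. The Cd274 ratio in neutrophil-like cells, 0.14 with an interval that included 0, was -0.08 with doubled gate minima and -0.02 under median-ratio scaling. For Cd274 in tumour cells the log2 ratio of 1.46 became 1.57 as a mean over cells, 1.37 with doubled gate minima, 1.64 with a gate of 1 UMI, 1.55 without cells that held another gate gene, 1.67 without the top 1% of cells and 1.37 under median-ratio scaling. With choices made after the data were seen it was 1.58 without leukocyte RNA and 1.58 with tumour cells low in Epcam added. In macrophage-like cells Cd274 had 0.21 as a mean over cells, and Pdcd1lg2 0.49 with a gate of 1 UMI. Pdcd1 in Cd8a T cells had -0.44 as a mean over cells, and -0.18 at its nearest to 0. Pdcd1lg2 in the Epcam gate ranged from 0.76 to 3.67, with few cells behind it. The average of Cd274 within bins of the interferon gamma list was 1.40 with edges set per library. At least 1.5-fold higher in knockout tumour cells were 2509 genes, and 1365 with a minimum of 200 UMIs. Higher with Cd274 in both libraries were 134 genes, 320 with a minimum of 50 thinned UMIs and 69 without leukocyte RNA. Stricter cell filters, kept doublets and mammary gland cells left out of the tumour gate kept the tumour ratio of Cd274 between 1.42 and 1.49. Differences between the genotypes cannot be told apart from differences between 2 libraries, and classes with under 50 cells rest on few cells.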
